A study of Mus musculus with 6 samples.

Results

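The cytosolic ribosomal protein genes of mouse adrenal medulla were taken from the platform's probe annotation as every single symbol that starts with Rpl or Rps and a number, plus Rplp0, Rplp2 and Rpsa, without the Rps6k kinases and pseudogenes. This gave 106 of the 45101 probe sets on the array, for 50 genes. One of them, Rps19bp1, encodes a binding partner of a ribosomal protein and not a ribosomal protein, and it is kept because its symbol meets the rule. A further 31 ribosomal protein symbols stood on probe sets annotated to several genes at once, and no gene is named from those. The medulla was profiled 8 weeks after transverse aortic constriction (TAC, a surgical narrowing of the aorta that puts a pressure load on the heart) in 3 mice and after sham surgery in 3 mice. All 6 animals were C57/Bl6 males, and their age is not given in the sources used here. Each Affymetrix expression array read RNA from the medullae of both adrenals of 1 animal, microdissected from 12 µm cryosections and amplified in 2 cycles from the 3′ end.

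Ribosomal proteins are the protein parts of the cytosolic ribosome, the particle that translates messenger RNA. The small subunit reads the message at its decoding centre, and the large subunit joins amino acids and releases the chain through an exit tunnel. A flexible stalk on the large subunit, made of Rplp0 and copies of Rplp1 and Rplp2, recruits translation factors. The mRNAs of these genes are short and abundant, and most begin with a terminal oligopyrimidine (TOP) tract, a C followed by an unbroken run of C or T, through which mTOR signalling controls their translation. Chromaffin cells of the medulla make large amounts of secretory protein, and this array measures the mRNAs, not their translation.

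The TOP tract is shown first because it is the sequence feature that marks this gene class and played no part in choosing the members. Of the 50 genes, 44 had an entry in RefSeq's table of promoters (assembly GRCm38.p6). A C followed by at least 4 bases of C or T stood exactly at the annotated start in 8 of the 44, or 18.2%, against 2.7% of 17491 protein-coding genes in the same table. Annotated starts can lie a few bases from the main start in this tissue, so an entry without the run says only that these letters are not at that position. The 8 starts follow, from 10 bases before to 20 bases from the start onward, in the direction of transcription, with the run in capitals.
Rpl14 (chr9:120571507-120571536, plus strand): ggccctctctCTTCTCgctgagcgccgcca
Rpl35 (chr2:39005112-39005141, minus strand): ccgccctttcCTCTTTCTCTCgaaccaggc
Rpl38 (chr11:114668570-114668599, plus strand): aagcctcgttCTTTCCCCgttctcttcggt
Rplp2 (chr7:141447641-141447670, plus strand): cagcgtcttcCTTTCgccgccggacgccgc
Rps10 (chr17:27635225-27635254, minus strand): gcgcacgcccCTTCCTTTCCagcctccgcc
Rps18 (chr17:33955646-33955675, minus strand): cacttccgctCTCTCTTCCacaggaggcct
Rps27 (chr3:90213629-90213658, minus strand): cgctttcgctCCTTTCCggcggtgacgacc
Rps6 (chr4:86857348-86857377, minus strand): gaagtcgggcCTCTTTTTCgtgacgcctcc
The run was longest in Rpl35, at 11 bases, and shortest in Rplp2, at 5. In the 300 bases around the start (250 before and 50 after, both strands), the letters CCGGAAG, a core bound by ETS factors such as GABP, were found in 21 of the 44 genes (47.7%) and in 12.9% of protein-coding genes. The GC box core GGGCGG was found in 59.1% of the members and 49.2% of protein-coding genes. TATAAA, the core of the TATA box, was found in 13.6% of the members and 14.8% of protein-coding genes.

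The 6 arrays differed in a measure of transcript shortening and in markers of other tissue, in both groups. For the control transcript Gapdh, the 3′ reading minus the 5′ reading, which grows where transcripts are shortened, was, in log2 units, 4.71, 3.67 and 3.98 in TAC 1, 2 and 3, against 5.15, 3.08 and 2.88 in sham 1, 2 and 3 (exact 2-sided permutation p = 0.6). TAC 1 and sham 1 thus stood apart within their groups. Th, the rate-limiting enzyme gene of catecholamine synthesis, lay at 12.31 to 13.70 after TAC and 13.12 to 13.74 after sham, and Pnmt, which makes adrenaline, at 14.31 to 14.52 after TAC and 14.05 to 14.27 after sham. With these, the 9 tested chromaffin markers averaged 12.09 to 12.91 on the log2 scale after TAC and 12.19 to 12.80 after sham. Markers of adrenal cortex (8 tested) averaged 6.65 to 9.23 after TAC and 6.66 to 10.51 after sham. Fibroblast markers (8 tested) averaged 6.62 to 7.75 after TAC and 7.32 to 8.60 after sham, and their part in the results below was not tested. In RNA from a whole tissue piece, fewer cells of a type and less RNA per cell cannot be told apart.

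The comparison of TAC with sham asks what a pressure load on the heart does to gene expression in the medulla, and 0 of the ribosomal protein genes passed its test. A probe set was tested where it reached log2 4 on at least 3 of the 6 arrays, which 88 of the 106 did, for 46 genes. The limma test, fitted over all 18188 tested probe sets with Benjamini-Hochberg adjustment, called 0 of the 88 at an adjusted p under 0.05, against 0% of all tested probe sets. The adjusted p-values of the 88 ran from 0.417 to 0.999. At an unadjusted p under 0.05 there were 4 of 88, or 4.55%, against 6.94% of all tested probe sets. Of these, 2 were higher after TAC (4.65% of all tested probe sets) and 2 lower (2.29%). Counted by gene, on the brightest tested probe set of each, there were 4 of 46, or 8.70%, against 7.29% of all tested genes. The groups did not overlap in 15 of the 88, against 13.0% of all tested probe sets, with 12 higher after TAC (9.01% of all) and 3 lower (4.01% of all).

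The members fell about evenly on both sides of sham. With the brightest tested probe set standing for each gene, 22 of the 46 genes were above sham after TAC and 24 below. Over all 10181 tested genes, 5972 were above and 4209 below. The median difference of the 46 genes, TAC minus sham, was -0.03 on the log2 scale, and that of all tested genes was 0.09. The per-array median of the 46 genes was 11.29, 12.39 and 12.18 in TAC 1, 2 and 3, against 11.59, 12.49 and 12.19 in sham 1, 2 and 3. TAC 1 and sham 1 were the lowest of their groups, and the groups overlapped. The median of all tested probe sets was also lowest in these arrays, at 6.5 in TAC 1 and 6.31 in sham 1. Relative to that median, the genes lay at 4.79, 5.37 and 5.50 in TAC 1, 2 and 3, against 5.28, 5.61 and 5.28 in sham 1, 2 and 3, so sham 1 was then no lower than sham 3. The difference was within 0.5 of 0 in 35 of the 46 genes (76.1%) and in 71.9% of all tested genes. It exceeded 1 in either direction in 3 genes (6.52%, against 4.54% of all tested genes), Rpl27a, Rpl11 and Rps4l.

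**Figure D1:**
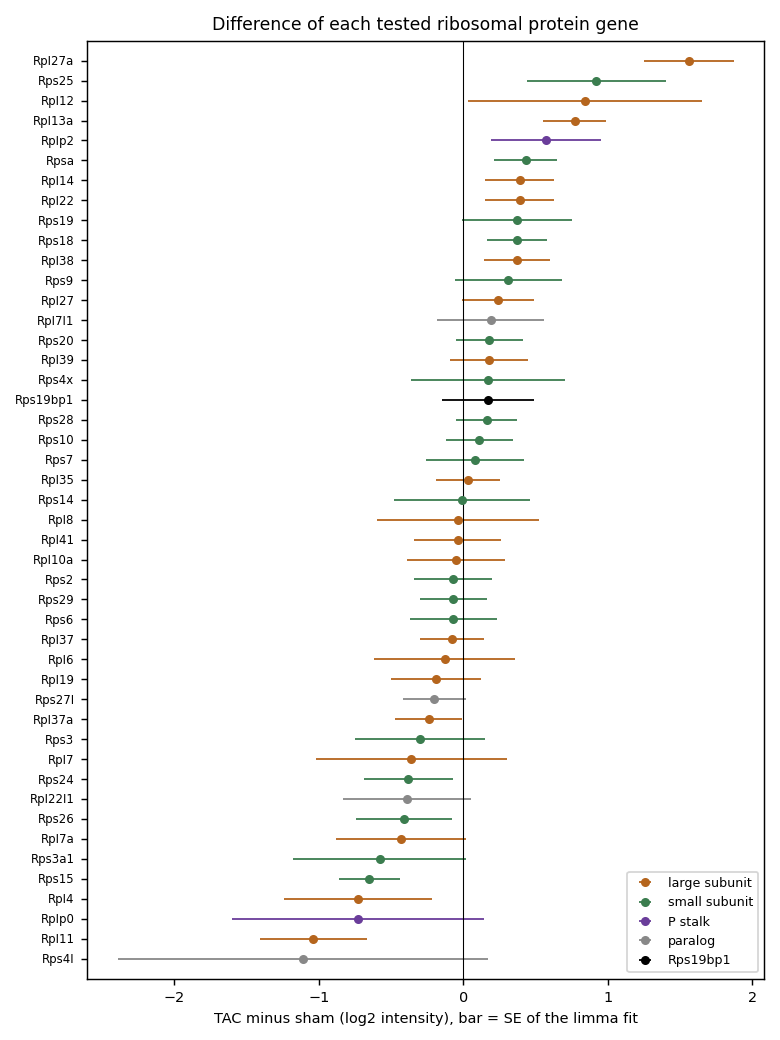
TAC minus sham on the log2 intensity scale (x axis) for the 46 tested ribosomal protein genes (y axis), coloured by role, with bars for the SE of the limma fit and n = 3 arrays per group. The genes spread on both sides of 0 around a median of -0.03, from -1.11 for Rps4l to 1.56 for Rpl27a.

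Among the 20 tested genes of the large subunit outside the stalk, 9 were above sham and 11 below, with a median difference of -0.04 and 0 past the test. Rpl27a, a large-subunit protein gene, had the smallest p of all members. It measured 9.64, 9.58 and 9.90 after TAC, against 8.69, 7.88 and 7.88 after sham. All TAC arrays lay above all sham arrays, and the lowest TAC value exceeded the highest sham value, that of sham 1, by more than the range of the TAC arrays. The difference was 1.56 ± 0.31 (SE), or 2.94-fold, with a limma adjusted p of 0.417. The other Rpl27a probe set, at 2.33 to 2.67 on all arrays, stayed below the filter.

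Rpl13a, whose product in human cells also takes part in interferon-induced translational silencing, and which is often used as a reference gene in PCR, measured 14.07, 14.09 and 13.90 after TAC, against 13.14, 13.41 and 13.20 after sham. The groups did not overlap, and the difference was 0.77 ± 0.22 (SE), with a limma adjusted p of 0.526. The brightest probe set of Rpl13a carries the suffix x, which marks probes that can cross-hybridise, and the gene's other readings are given with the probe sets below. Rpl11, whose product binds Mdm2 when ribosome assembly fails, measured 11.00, 11.57 and 10.89 after TAC, against 11.55, 12.50 and 12.54 after sham. TAC 2 and sham 1 were almost equal, so the groups overlapped, while TAC 1 and TAC 3 lay below all sham arrays. The difference for Rpl11 was -1.04 ± 0.37 (SE), with a limma adjusted p of 0.647.

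Rpl4, which lines the exit tunnel, measured 11.28, 12.32 and 11.96 after TAC, against 11.60, 13.05 and 13.10 after sham, with a difference of -0.73 ± 0.51 (SE) and a limma adjusted p of 0.922. Here sham 1 lay below 2 of the TAC arrays, and the difference was -1.22 without sham 1 and -0.45 without TAC 1. Rpl22, an RNA-binding protein gene with a role in T-cell development, measured 11.52 ± 0.27 (SD) after TAC and 11.13 ± 0.13 after sham. The difference on this brightest probe set was 0.39, or 0.25 without TAC 2, and the gene's others read 0.40 and -0.44. Rpl37a differed by -0.24 ± 0.23 (SE), and by -0.13 without TAC 3. Rpl12, a protein gene of the stalk base, was highest in TAC 1 and sham 1 within their groups. The same held for 11 of the 88 probe sets in all (12.5%, against 19.9% of all tested probe sets). Rpl12 measured 7.22, 4.43 and 5.82 after TAC, against 6.06, 4.28 and 4.61 after sham, a spread within groups that exceeded the difference of 0.84. Rpl14 and Rpl38 both lay above sham without overlap, by 0.39 and 0.37, with limma adjusted p-values of 0.888 and 0.895.

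**Figure D2:**
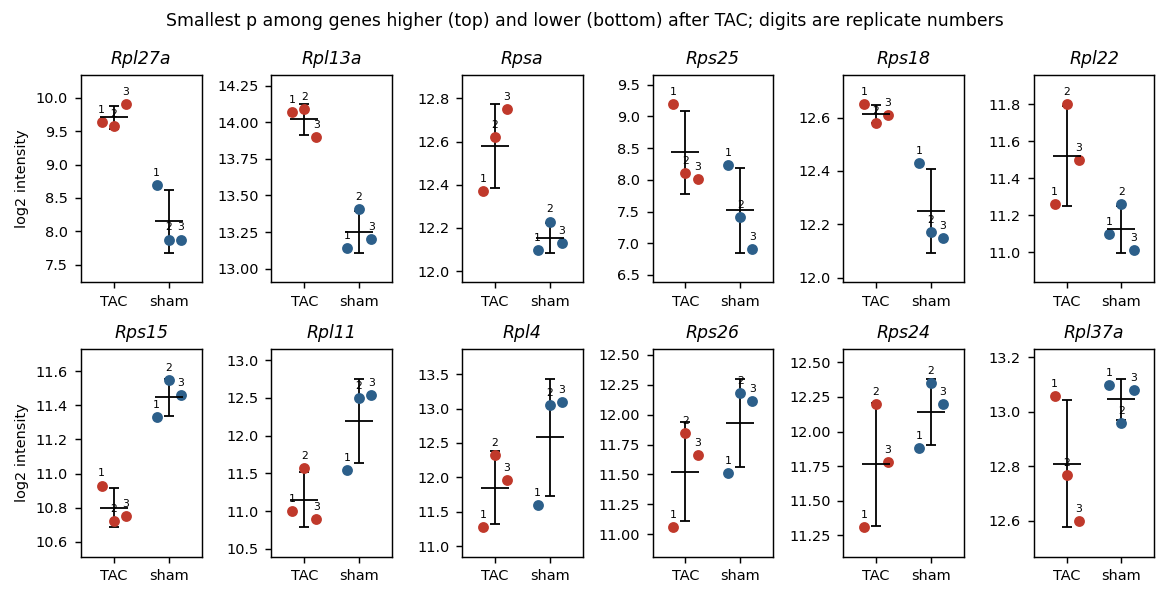
Log2 intensity (y axis) on each array for the 6 genes with the smallest p among those above sham (top) and the 6 among those below (bottom). Points are arrays with their replicate number, TAC in red and sham in blue, and the bar and whiskers are mean and SD (n = 3). Each panel has its own y range. Each gene is shown by its brightest tested probe set. On these probe sets TAC and sham separate in Rpl27a, Rpl13a, Rpsa, Rps18 and Rps15 and overlap in the others.

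Among the 19 tested genes of the small subunit, 10 were above sham and 9 below, with a median difference of 0.08 and 0 past the test. Rps15, a protein gene of the subunit's head, had the smallest p of them. It measured 10.93, 10.72 and 10.75 after TAC, against 11.33, 11.55 and 11.46 after sham. All TAC arrays lay below all sham arrays, with an SD of 0.11 in each group, and the difference was -0.65 ± 0.21 (SE, limma adjusted p = 0.600). A second probe set of Rps15 read 9.35, 9.37 and 9.54 after TAC, against 9.58, 10.43 and 10.24 after sham, again without overlap and with a difference of -0.66. Rps15 was thus the only member whose tested probe sets, 2 in number, all separated the groups downward.

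Rpsa, which encodes a small-subunit protein also known as the laminin receptor, measured 12.37, 12.62 and 12.75 after TAC, against 12.10, 12.23 and 12.13 after sham. The groups did not overlap, and the difference was 0.43 ± 0.22 (SE, limma adjusted p = 0.821). Rps18, often used as a reference gene in PCR, measured 12.61 ± 0.03 (SD) after TAC and 12.25 ± 0.16 after sham. This brightest probe set, with suffix x, differed by 0.37 ± 0.21 (SE) and also separated the groups. The gene's other tested probe sets, with suffixes a and x, differed by 0 and 0.01, and their groups overlapped. Rps25, needed for initiation at some viral internal entry sites, measured 9.19, 8.10 and 8.01 after TAC, against 8.23, 7.41 and 6.91 after sham. It was highest in TAC 1 and sham 1, and sham 1 lay above TAC 2 and TAC 3, so the groups overlapped (difference 0.92 ± 0.48 SE, limma adjusted p = 0.825). The difference was 0.54 without TAC 1 and 0.61 without sham 3.

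The other small-subunit genes named by the rule lay within 0.5 of sham. Rps6, the substrate of S6 kinase downstream of mTOR, measured 9.05, 9.83 and 9.34 after TAC, against 9.38, 9.77 and 9.30 after sham, a difference of -0.07 ± 0.30 (SE). Rps19, mutated in human Diamond-Blackfan anaemia, differed by 0.37 ± 0.38 (SE). Leaving out 1 array moved this to 0.09 (without sham 1) or 0.73 (without sham 2). Rps24, another gene of that disease, differed by -0.38 ± 0.31, with -0.16 without TAC 1 and -0.60 without TAC 2. Rps26 differed by -0.41 ± 0.33, with -0.18 without TAC 1 and -0.63 without sham 1. Rps28 varied little over the arrays. It measured 14.62, 14.82 and 14.55 after TAC, against 14.52, 14.54 and 14.44 after sham. On this brightest probe set the groups were separated by only 0.01, and the difference of 0.16 was within the SE of 0.21. The gene's other tested probe sets, with suffix x, differed by 0.25 ± 0.21 (SE) and 0.33 ± 0.22. They also lay above sham without overlap, so all tested probe sets of Rps28 separated the groups upward.

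The stalk genes lay on opposite sides of sham. Rplp0, the stalk's anchor on the ribosome and also a common PCR reference, measured 10.57, 12.86 and 12.14 after TAC, against 10.97, 13.50 and 13.27 after sham. TAC 1 and sham 1 were the lowest arrays, and the difference of -0.73 ± 0.87 (SE, limma adjusted p = 0.980) was smaller than the SD within either group, at 1.17 after TAC and 1.4 after sham. It ran from -1.53 without sham 1 to -0.08 without TAC 1. Rplp2 measured 12.14, 13.02 and 12.64 after TAC, against 11.44, 12.49 and 12.18 after sham. Its difference was 0.57 ± 0.38 (SE, limma adjusted p = 0.913), and the groups overlapped. It was 0.27 without sham 1 and 0.36 without TAC 2. Rplp1 was not analysed here.

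Paralogs, duplicated genes that resemble a standard ribosomal protein gene, were followed beside their partners. Of the 4 tested paralogs 1 was above sham and 3 below, and none passed the test (0 of 4). Rpl22l1, the paralog of Rpl22, differed by -0.39 ± 0.44 (SE), against 0.39 ± 0.24 for the brightest probe set of Rpl22. The other Rpl22 probe sets read 0.40 and -0.44, so this contrast depends on the probe set taken. The value of Rpl22l1 was -0.02 without sham 2 and -0.74 without sham 1, and the difference between the genes was not tested. Rpl7l1 differed by 0.19 ± 0.37, against -0.36 ± 0.66 for Rpl7. Rps27l, a gene induced by p53, differed by -0.20 ± 0.22. Rps4l measured 4.25, 6.19 and 5.83 after TAC, against 3.66, 7.65 and 8.28 after sham. Its difference of -1.11 ± 1.28 (SE) rested on sham 2 and sham 3, while sham 1 was the lowest array of all and lay below the filter's floor. Without sham 1 it was -2.54, and without sham 3 it was -0.24. Its partner Rps4x differed by 0.17 ± 0.53. Rpl3l, a paralog of skeletal muscle and heart, lay between 2.79 and 3.10 on every array, and Rpl39l, a paralog known from testis, between 2.77 and 2.96. Both stayed below log2 4 on every array, while Rpl39 was tested (difference 0.18 ± 0.27 SE).

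The 18 member probe sets that were not tested included 15 below log2 4 on all 6 arrays and 3 that reached it on 1 array. Of the 18, 14 belonged to genes read by another tested probe set, and the other 4 were the only ones of Rps16, Rps27, Rpl3l and Rpl39l. Rps16 and Rps27 encode standard ribosomal proteins that every cell uses, and their single-symbol probe sets lay at 2.01 to 2.11 and 1.97 to 2.04. These probe sets gave no level above the filter for their genes.

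Different probe sets of 1 ribosomal protein gene often gave opposite signs. Of the 20 genes with several tested probe sets, 13 had readings on both sides of 0, and when a gene's readings were taken in pairs, 44 of 75 pairs had equal signs (58.7%), against 54.8% of 8181 pairs over all tested genes. Rpl13a was the widest among the 14 genes with at least 3 tested probe sets, with readings of 0.77, 0.20, -0.35 and -0.46. The readings with suffix x were the positive ones, and those with suffix a, which marks probes shared by transcripts of 1 gene, the negative ones. Rpl7l1 read -0.70, 0.35 and 0.19. Rps24 read 0.53 with its probe set without a suffix and -0.34 to -0.51 with the 4 others. The spread was narrowest in 3 other genes. The 5 probe sets of Rps10 lay between 0.00 and 0.12, the 3 of Rps29 between -0.07 and 0.05 and the 3 of Rps28 between 0.16 and 0.33. Rps29 is itself among the 13, as is Rps14 (-0.01 and 0.04), so that count includes readings close to 0.

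By type of probe set, the members' median difference was 0.27 for the 20 without a suffix, -0.30 for the 28 with suffix a, -0.44 for the 3 with suffix s and 0.01 for the 37 with suffix x. Over all tested probe sets these medians were 0.04 without a suffix, -0.04 with a, 0.08 with s and 0.18 with x, which is another order. The difference between types was not tested. Members with suffix a were above sham in 10 of 28, against 1137 of 2401 among all tested probe sets with that suffix. Members without a suffix were above sham in 13 of 20, against 7002 of 12947 among all tested probe sets without one. A probe set with suffix x can also read pseudogene transcripts or related genes, so its value may not belong to the named gene alone.

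**Figure D3:**
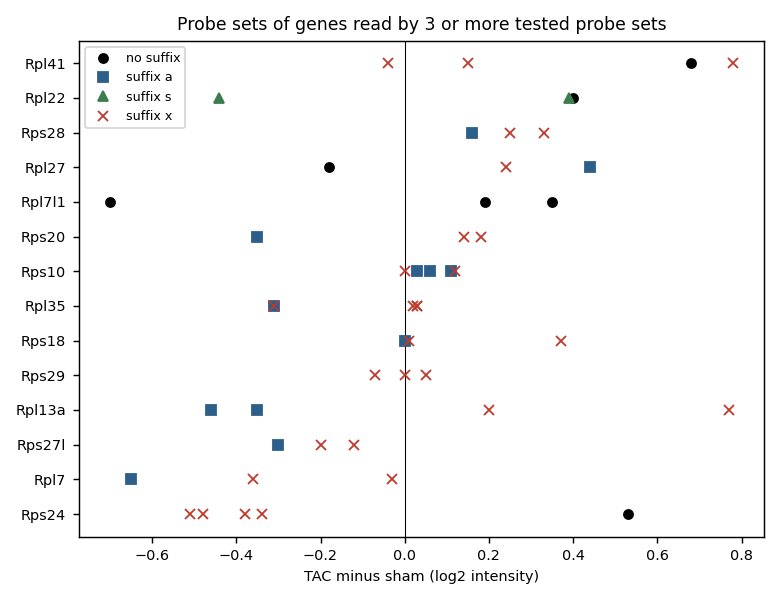
TAC minus sham on the log2 scale (x axis) for each tested probe set of the 14 genes (y axis) read by 3 or more, with symbols for the suffix of the probe set. Readings of Rpl13a run from -0.46 to 0.77, while those of Rps10 lie between 0.00 and 0.12.

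Within each group, 1 array lay below the others in most members. Sham 1 was the lowest sham array in 64 of the 88 probe sets (72.7%, against 62.2% of all tested probe sets). TAC 1 was the lowest TAC array in 59 (67.0%, against 49.5%). Both held in 51 of 88, or 58.0%, against 44.1% of all tested probe sets. By size, the median deviation of sham 1 from the other sham arrays was -0.34 for the 88 and -0.46 for all tested probe sets. That of TAC 1 from the other TAC arrays was -0.39 for the 88 and -0.26 for all tested probe sets. Across the 88 probe sets, the deviation of sham 1 from the other sham arrays correlated with that of TAC 1 from the other TAC arrays at r = 0.84, and across all tested probe sets at r = 0.76. Probe sets of 1 gene share transcripts and all share the arrays, so this is a description without a test. TAC 1 and sham 1 had the largest Gapdh 3′ minus 5′ difference of their groups, and its part in this pattern was not tested.

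The size of that deviation differed widely between members. For Rplp0 it was -1.93 in TAC 1, against the mean of the other TAC arrays, and -2.41 in sham 1, against the mean of the other sham arrays. For Rpl7 the values were -1.79 in TAC 1 and -1.43 in sham 1, for Rps3a1 -1.51 in TAC 1 and -1.35 in sham 1, and for Rpl8, a gene of the large subunit, -1.38 in TAC 1 and -1.26 in sham 1. In Rps9, a probe set with suffix s deviated by -1.97 in TAC 1 and -3.38 in sham 1, while the brighter one with suffix x deviated by -0.21 in TAC 1 and -0.89 in sham 1. Rpl41, which encodes a very short peptide, deviated the other way on 2 of its 4 probe sets, by 1.77 in TAC 1 and 2.37 in sham 1 on one and by 1.28 in TAC 1 and 2.14 in sham 1 on the other. At the other end, 16 of the 88 probe sets (18.2%, against 7.75% of all tested probe sets) kept within 0.5 over all 6 arrays. All 3 of Rps29 were among them. A range of more than 1.5 was found in 23 (26.1%, against 44.4% of all tested probe sets). The median range over the 6 arrays was 0.92 for the members and 1.38 for all tested probe sets.

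**Figure D4:**
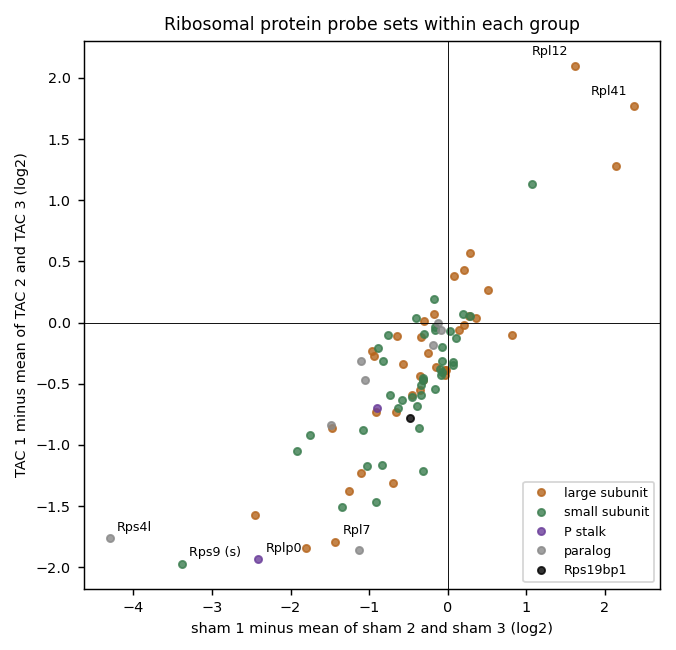
Each point is 1 of the 88 tested ribosomal protein probe sets, with the deviation of TAC 1 from the mean of TAC 2 and TAC 3 (y axis, log2) against that of sham 1 from the mean of sham 2 and sham 3 (x axis, log2), coloured by role. Most points lie at the lower left, and Rpl12, Rpl41 and Rps25 lie at the upper right, so the same probe sets deviate in both groups (r = 0.84).

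The number of members with a small p depended on how the arrays were weighted, and it did so for all probe sets on the array. After cyclic loess normalization, 10 of the 88 had an unadjusted p under 0.05 (1 higher and 9 lower), against 7.96% of all tested probe sets. With limma's array weights, 39 did, against 48.1% of all tested probe sets, and 31 passed an adjusted p under 0.05, against 36.8%. Without sham 1, 10 had an unadjusted p under 0.05, against 13.4% of all tested probe sets. Without TAC 1 and sham 1, 10 of the 88 members had an unadjusted p under 0.05, 3 higher and 7 lower, against 13.8% of all tested probe sets, and 0 passed after adjustment in limma. The median difference of the 46 genes was then 0.02, equal to the 0.02 of all tested probe sets. Rpl27a differed by 1.86, Rpl13a by 0.69, Rps15 by -0.77 and Rpl11 by -1.29, with limma adjusted p-values from 0.302 to 0.335.

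The probe sets that carry a ribosomal protein symbol among several were set beside the members. Of these 94 tested probe sets, 68 were above sham, against 9944 of all 18188, with a median difference of 0.16 and 0 past the test. At an unadjusted p under 0.05 there were 4, all higher, or 4.26%, against 6.94% of all tested probe sets (4.65% higher). The groups did not overlap in 19, all higher, or 20.2%, against 13.0% of all tested probe sets (9.01% higher) and 20.7% of all those with suffix x. These probe sets can read several genes, so they are given only as counts.

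Other genes of protein synthesis, from lists chosen with earlier results known, did not pass the test either. Beside the counts of each list, 5972 of all 10181 tested genes were above sham (median 0.09). Among mitochondrial ribosomal protein genes, 41 of 70 were above sham (median 0.10, 0 past the test). Their median deviation in sham 1 from the other sham arrays was -1.06, against -0.36 for the cytosolic genes and -0.46 for all tested probe sets. Mrpl22 measured 8.66 ± 0.38 (SD) after TAC and 7.68 ± 0.29 after sham (difference 0.98, limma adjusted p = 0.560). Mrps15 measured 9.13 ± 0.25 after TAC and 8.20 ± 0.40 after sham (difference 0.93, limma adjusted p = 0.581). Among initiation factors 25 of 46 were above sham (median 0.11, 0 past the test). Eif3a, a subunit gene of the initiation factor that binds the small subunit, measured 10.01, 10.55 and 10.04 after TAC, against 11.57, 10.94 and 10.95 after sham, and lay lower without overlap (difference -0.95, limma adjusted p = 0.565). Of 7 elongation factor genes 3 were above sham (median -0.04), with Eef1e1 at -0.67 and Eef1b2 at 0.46.

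Of 15 tested genes with other TOP mRNAs 4 were above sham (median -0.11, 0 past the test), among them Tpt1 at 0.37, while Eif3h stood at -0.85. Ribosome biogenesis genes were above sham in 18 of 33 (median 0.03, 0 past the test), with Taf1b, a subunit gene of an RNA polymerase I factor, at -1.15 and Polr1e at 0.75. Taf1b lay near the filter's floor of log2 4 after TAC, at 4.09, 4.26 and 3.30, with TAC 3 below it. Among regulators of TOP translation and of ribosomal protein transcription, 11 of 14 were above sham (median 0.22, 0 past the test). Eif4ebp2, which restrains cap-dependent initiation and was also counted among the initiation factors, measured 4.68, 5.52 and 5.32 after TAC, against 3.96, 4.10 and 4.39 after sham, without overlap (difference 1.03 ± 0.30 SE, limma adjusted p = 0.555). Its sham values also lay near that floor, with sham 1 below it. Myc, an activator of ribosome genes, differed by -0.53 ± 0.30. Fau, which encodes a small-subunit protein fused to a ubiquitin-like one, differed by -0.21 ± 0.29.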

How the data were processed

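The deposited table holds background-corrected intensities on a linear scale, 1 per probe set and array. Per the submitters' processing notes GCRMA made them; its version is not given in the sources used here. Distributions differed between the 6 arrays (medians of tested probe sets 6.31 to 7.01), so whether arrays were normalized to each other is unknown, which bears on every value set between arrays. Values were log2-transformed as deposited. The 64 control probe sets were left out of tests. Symbols came from GEO's platform annotation, and all 106 members were matched by Entrez identifier to RefSeq (GRCm38.p6), which changed 0 symbols. Probe sets with several symbols gave no gene names. The fit of TAC against sham used lmFit and eBayes of limma 3.58.1 (R 4.3.3) without covariates, 2-sided, with Benjamini-Hochberg adjustment, over all probe sets that reached log2 4 on 3 or more arrays. The procedure was run on simulated data with noise drawn independently for each probe set and array. Those data lack the deviations that probe sets of TAC 1 and sham 1 share here, so the run does not cover them. Alternatives changed the filter, the scaling between arrays, the weighting of arrays, the probe sets used and the arrays left out. The number of arrays limits the precision, and the median SE of a member's difference was 0.296, against 0.389 over all tested probe sets. Samples were separate animals, per the labels' protocols.

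The members, gene lists and naming rule were chosen with earlier results of these data known. The rule named the 6 genes with the smallest p in each direction, the stalk genes, Rpsa, Rps6, Rps19, Rpl5, Rpl11, Rps27a and 8 paralog pairs whatever their values, genes with several probe sets at an unadjusted p under 0.05 (there were none), the 3 genes with the widest and the 3 with the narrowest spread over probe sets, and 2 genes of each companion list. Values led to the choice of 8 more: Rpl12, Rpl14, Rpl38, Rpl8, Rps3a1, Rps9, Rpl41 and Rps16. Rplp1, Rpl5, Rps27a, Rpl3, Rpl10, Rpl10l, Rpl36a and Rpl36al are not analysed here.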

Additional observations from a re-analysis of the deposited data

How the results depend on the processing

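No member passed an adjusted p of 0.05 in limma under any alternative except array weights, where 31 of 88 did (35.2%, against 36.8% of all tested probe sets). The weight was 6.11 for TAC 3, 0.396 for TAC 1, 0.357 for TAC 2 and 0.143 for sham 1. The 4 members at an unadjusted p under 0.05 (4.5%, against 6.94% of all) became 12 of 106 without a filter (11.3%, against 4.69% of all), 8 after quantile normalization (9.1%, against 7.95%), 10 after cyclic loess (11.4%, against 7.96%), 39 with array weights (44.3%, against 48.1%), 10 without sham 1 and TAC 1 together (11.4%, against 13.8%) and 1 without sham 3 and TAC 1, the arrays with the most cortex signal (1.1%, against 3.52%). Counted by probe set, the members' share was thus below that of all probe sets as reported. It was above that share without a filter, after quantile normalization or cyclic loess, with the replicate block and without suffixes x and s (6.2%, against 6.06%). Counted by gene, the share as reported was above, at 8.70% of the 46, against 7.29% of all tested genes. With 1 array left out, the member probe sets at an unadjusted p under 0.05 numbered 2 to 10. There were 10 without sham 1 (11.4%, against 13.4%). Without TAC 3, sham 2 or sham 3 there were 2 (2.3%), against 3.82%, 3.52% and 4.25% of all. The median difference of the genes ran from -0.15 without TAC 2 and with array weights to 0.18 without sham 3 and TAC 1. Its sign is therefore not settled. For scale, the per-array median level of these genes had a pooled SD within groups of 0.53. Relative to all tested probe sets, the median difference stayed between -0.15 and 0.04. With the replicate block, 16 members had an unadjusted p under 0.05 (18.2%, against 16.5% of all tested probe sets). Whether the replicate numbers pair the animals is not known. Deviations of same-numbered arrays from their group means correlated at 0.764, 0.783 and -0.215. The 3 deviations of a group sum to 0, so these values cannot show or exclude a pairing. With 1 array left out, the lowest and highest values were -0.28 and 0.11 for Rps6, -0.84 and 0.24 for Rpl7, -0.17 and 0.39 for Rpl7l1, -0.01 and 0.28 for Rpl39, -0.24 and 0.66 for Rps4x and -0.18 and 0.02 for Rps29. Among named genes the sign turned in Rplp0 (0.26 without sham 3 and TAC 1), Rps4l (0.35 without sham 3 and TAC 1) and Rpl7 (0.24 without TAC 1, 0.41 without sham 3 and TAC 1). It turned in Rps6 (0.11 without TAC 1, 0.07 without sham 2, 0.05 without sham 1 and TAC 1, 0.02 without sham 3 and TAC 1) and Rpl7l1 (-0.17 without sham 1, -0.09 with array weights, -0.07 without sham 1 and TAC 1). It also turned in Rpl39 (-0.01 without TAC 1, -0.14 without sham 3 and TAC 1), Rps4x (-0.24 without TAC 2, -0.14 without sham 1), Rps10 (-0.01 after cyclic loess, -0.05 with array weights) and Rps29 (0.02 without TAC 3, 0.0 without sham 2). The cause was not tested.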

Other observations

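The array also carries 3 control probe sets for 18S ribosomal RNA, the RNA core of the small subunit, which were not part of the tested probe sets and were examined after their values were seen. Ribosomal RNA carries no poly(A) tail, and the labelling starts from the 3′ end of polyadenylated RNA. The 5′ probe set read 9.84, 10.27 and 8.87 after TAC, against 11.89, 12.00 and 12.33 after sham. All TAC arrays lay below all sham arrays (difference -2.41 on the log2 scale). The 3′ probe set read 10.42, 9.73 and 9.51 after TAC, against 11.77, 10.71 and 11.49 after sham, again without overlap (difference -1.44). The middle probe set read 10.42, 10.92 and 10.22 after TAC, against 10.84, 10.98 and 11.56 after sham, with overlap (difference -0.61). Exact 2-sided permutation tests gave p = 0.1, 0.1 and 0.2 for the 5′, 3′ and middle probe sets (0.15, 0.15 and 0.2 after Benjamini-Hochberg adjustment over the 3), and 0.1 is the smallest p that 3 against 3 arrays allow. The 3′ control probe set of beta-actin was likewise lower, at 11.17, 11.41 and 11.04 after TAC, against 12.45, 12.11 and 12.26 after sham. The 3′ control of Gapdh overlapped between groups, at 11.73, 12.48 and 12.41 after TAC, against 11.86, 12.78 and 12.61 after sham. The 5′ control of beta-actin also overlapped, at 4.34, 6.83 and 5.35 after TAC, against 4.52, 8.79 and 8.33 after sham. The part of these controls in the 18S difference was not tested.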
